A study of Mus musculus with 12 samples.

Results

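The 8 genes described here move GABA, glycine or taurine across the plasma membrane (Slc6a11, Slc6a9 and Slc6a6), break GABA down (Abat and Aldh5a1) or take part in making it (Gad1, Gad2 and Maob). They were taken by symbol from the 24421 gene entries of a table of normalized read counts, and all 8 were among the 15464 genes tested, those that reached 10 in 3 or more libraries. RNA was sequenced from GFP-positive cells sorted from the cerebellum of Aldh1l1-GFP mice at postnatal day 1 (P1), P7, P14 and P28, with 3 libraries at each age and 12 in all. Every group carried the same transgene, in which the promoter of the astrocyte gene Aldh1l1 drives GFP, on a C57/BL6J background, with male and female animals used and no treatment. The comparisons asked how expression differed between consecutive ages and between the youngest and the oldest age. The sources used here do not say whether the 3 libraries of an age came from separate animals, so the p-values measure the spread between these libraries, which may be technical.

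GABA and glycine are the main inhibitory transmitters of the cerebellum, released by Purkinje cells and by interneurons of the molecular and granular layers. Astrocytes, including the Bergmann glia that wrap Purkinje cell synapses, take up GABA through transporters such as GAT-3 (Slc6a11) and glycine through GlyT1 (Slc6a9), and they degrade GABA in mitochondria, where GABA transaminase (Abat) makes succinic semialdehyde and Aldh5a1 oxidizes it to succinate. Glutamate decarboxylases (Gad1 and Gad2) make GABA from glutamate and are classic markers of GABAergic neurons, whereas Maob, on the outer mitochondrial membrane, takes part in a separate route that makes GABA from putrescine.

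The libraries held between 6399499 reads on genes (P7 replicate 2) and 14733985 (P1 replicate 1). The sorted cells carried the astrocyte markers their label names. The summed normalized count of 10 astrocyte markers was 78357 ± 8323 (SD, n = 3), 47505 ± 14725, 165258 ± 19211 and 374860 ± 30493 at P1, P7, P14 and P28, and none of the 10 was at 0 in any library. Markers of other cell types were present too. The sum of 8 oligodendrocyte markers was 2077, 26332, 344147 and 128193 at P1, P7, P14 and P28, and at P14 it was higher than the astrocyte sum in each of the 3 libraries. The sum of 12 markers of GABAergic interneurons and their precursors peaked at P7. P7 replicate 2 stood apart from the other P7 libraries, with the smallest read total, the lowest astrocyte sum at that age (30655, against 57897 and 53964) and the highest sum of 6 choroid plexus markers (128110, against 61088 and 48229) and of 8 endothelial and pericyte markers (12048, against 3672 and 2773). The choroid plexus sum also set other libraries apart, with 912 in P14 replicate 3 against 109483 and 63652 in the other P14 libraries, and with 104672, 182811 and 17802 in the P28 libraries. From P7 on, most of this sum in each library was the single gene Ttr, with 125927 in P7 replicate 2. P1 replicate 2 had the highest endothelial and pericyte sum at its age (5315, against 1719 and 1885) and the highest sum of 6 meningeal and fibroblast markers (68172, against 31761 and 16084). The part of these cells in the results was not tested. Values without a library are given wherever leaving it out changes a call of one of the 8 genes. In sorted bulk samples such as these, fewer cells of a type and less RNA per cell cannot be told apart.

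Between P1 and P7, 6 of the 8 genes passed the test, 3 higher (Slc6a6, Gad1 and Gad2) and 3 lower (Slc6a11, Slc6a9 and Aldh5a1), against 7.70% of all genes tested (3.47% higher and 4.24% lower). From P7 to P14, 7 of the 8 passed, with Slc6a11, Slc6a9, Abat, Aldh5a1 and Maob higher and Gad1 and Gad2 lower, against a background of 20.9% (10.8% higher and 10.0% lower). From P14 to P28 only Abat (higher) and Slc6a11 (lower) passed, against 14.4% (5.68% higher and 8.76% lower). Over the whole span from P1 to P28, 5 genes were higher (Slc6a9, Slc6a6, Abat, Aldh5a1 and Maob) and Slc6a11 was lower, against 34.6% (14.6% higher and 20.0% lower). The test was limma on log2(normalized count + 1) over all 12 libraries, and a gene passed at an adjusted p under 0.05. The median log2 fold change of the 8 genes was -0.49, 1.00, -0.044 and 0.97 in the 4 comparisons, beside 0.037, -0.086, -0.12 and -0.23 over all genes tested. The libraries of the earlier and later age did not overlap for 7, 7, 4 and 6 of the 8 genes, whereas 38.3%, 46.1%, 26.1% and 41.9% of all genes did not overlap.

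**Figure D1:**
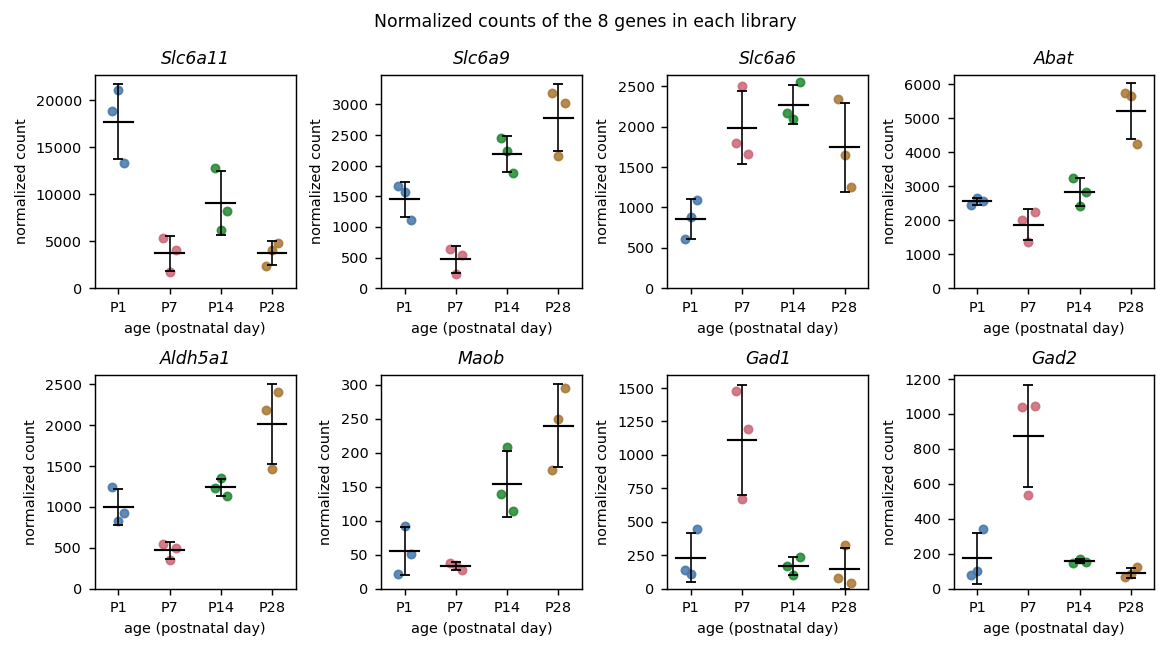
Normalized count (linear axis from 0) of each of the 8 genes at P1, P7, P14 and P28. Points are the 3 libraries of an age, the horizontal line is their mean and the whiskers are 1 SD. Gad1 and Gad2 stand above all other ages at P7, where Slc6a9 and Aldh5a1 have their lowest values, and Slc6a11 is highest at P1.

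Slc6a11 encodes GAT-3, a GABA transporter found mainly on astrocytes, and lies on the plus strand at chr6:114131241-114249952 (GRCm38, GENCODE M21). Its normalized count was 18825, 21043 and 13280 in the 3 P1 libraries, 5318, 1716 and 4082 at P7, 12827, 6223 and 8228 at P14, and 2347, 4041 and 4814 at P28. The P1 libraries all lay above those of every other age, the P14 libraries lay above both P7 and P28, and P7 and P28 overlapped. Slc6a11 thus changed direction at every step, with a fall of 5.21-fold from P1 to P7 (log2 fold change -2.38, SE 0.380, adjusted p = 0.00155), a rise of 2.60-fold to P14 (1.38, adjusted p = 0.0182) and a second fall of 2.43-fold to P28 (-1.28, adjusted p = 0.0369). Over the whole span it was 4.86-fold lower (adjusted p = 3.81e-04). Without P7 replicate 2 the fall to P7 was -1.90 on the log2 scale (adjusted p = 0.00403) and the rise to P14 was 0.90 (adjusted p = 0.0793). The rise also missed the threshold without P14 replicate 1 (1.10, adjusted p = 0.0905), and the fall from P14 to P28 missed it without P1 replicate 1 (adjusted p = 0.0512), P14 replicate 1 (0.148), P14 replicate 3 (0.0904) or P28 replicate 1 (-0.98, 0.111). That fall also missed it with no filter on low values (adjusted p = 0.0534) and with only the 2 compared ages fitted (0.0772).

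Scaled by exon length and library total (RPKM, the reads on a gene per kb of its exons and per library size), Slc6a11 was at 390 ± 79.1 RPKM at P1 (SD, n = 3), which ranked it 42nd of 14857 genes with a length, and at 84.7 ± 41.0, 176 ± 67.8 and 60.5 ± 18.4 at the later ages, where it ranked 269th, 116th and 450th. Its mean was the highest of the 8 genes per length at every age, although at P28 its libraries overlapped with those of Abat (55.8 ± 10.8). Slc6a11 equalled 22.4% ± 3.16 of the summed astrocyte markers at P1, then 7.45% ± 1.80, 5.59% ± 2.20 and 0.984% ± 0.272 at the 3 later ages, so relative to these markers its level was lower at each later age on average, with the P7 and P14 libraries overlapping. Like Slc6a11, the sum of 6 oligodendrocyte precursor markers was highest on average at P1 and second highest at P14. It was 9216 ± 2114 at P1, 7850 ± 583 at P14, 4132 ± 440 at P7 and 2708 ± 265 at P28. Pdgfra, Sox10, Olig1, Olig2 and Gpr17 of that list were above 0 in every library, and Cspg4 was at 0 in P28 replicate 2. The most abundant marker was Pdgfra at P1 (3646 ± 978 normalized counts) and Gpr17 at the later ages, with its highest mean at P14 (3052 ± 458). Olig1, Olig2 and Cspg4 were, like the sum, highest on average at P1 and second highest at P14. Pdgfra was instead lower at each later age (1281, 720 and 353), Gpr17 went from 855 at P1 to 1506 at P7, and Sox10 had its highest mean at P14 (1290). The part of these cells in the Slc6a11 values was not tested. The 5 genes whose log2 values followed Slc6a11 most closely over the 12 libraries were Vcam1 (r = 0.934), Olig1 (0.925), Gabbr2 (0.924), Trim9 (0.917) and Zmym3 (0.902). These correlations, and those given for the other genes, are descriptions over libraries that share the 4 ages.

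Slc6a9 encodes the glycine transporter GlyT1, which clears glycine around glial cells, and lies on the plus strand at chr4:117834506-117875198. Its normalized count was 1663, 1563 and 1122 at P1, 634, 228 and 546 at P7, 2458, 2246 and 1877 at P14, and 3180, 2162 and 3017 at P28. The P7 libraries lay below all others, the P1 libraries lay between P7 and P14, and P14 and P28 overlapped. Slc6a9 fell 3.33-fold from P1 to P7 (log2 fold change -1.73, SE 0.313, adjusted p = 0.00337), or by -1.28 on the log2 scale without P7 replicate 2. It rose 5.07-fold to P14 (2.34, adjusted p = 1.02e-04), the largest rise of the 8 genes in that step with all 12 libraries. Without P7 replicate 2 this rise was 1.89, below that of Maob (2.17). From P14 to P28 the change was 0.33 (adjusted p = 0.508). Over the whole span Slc6a9 was 1.92-fold higher (adjusted p = 0.0309), a call that was lost without P1 replicate 2 (adjusted p = 0.0516), P1 replicate 3 (0.77, 0.121), P28 replicate 1 (0.0839) or P28 replicate 3 (0.0712), and with libraries scaled by their totals alone (0.51, 0.192). The genes most like Slc6a9 were Gstm5 (r = 0.975), AI464131 (0.974), Scd2 (0.970), Pigs (0.969) and Ttpa (0.968). Exons of Slc6a9 share bases with Ccdc24 and B4galt2 on the opposite strand, and whether counting used strand is not given in the sources used here. B4galt2 was at 1421 ± 128 normalized counts, 731 ± 235, 600 ± 207 and 701 ± 214 at P1, P7, P14 and P28, and Ccdc24 did not exceed a mean of 189, so part of the Slc6a9 count is uncertain.

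Slc6a6 encodes the taurine transporter TauT, which also carries beta-alanine and, weakly, GABA, and lies at chr6:91684053-91759066 on the plus strand. Its normalized count was 605, 878 and 1096 at P1, 1803, 2505 and 1660 at P7, 2171, 2096 and 2548 at P14, and 2338, 1649 and 1248 at P28. The P1 libraries lay below all others, and P7, P14 and P28 overlapped. Slc6a6 rose 2.34-fold from P1 to P7 (log2 fold change 1.23, SE 0.255, adjusted p = 0.00791; 1.05 and 0.0483 without P7 replicate 2) and remained 2.02-fold above P1 at P28 (adjusted p = 0.00708; 0.58 and 0.102 with scaling by library totals). Its changes from P7 to P14 (0.21, adjusted p = 0.637; -0.048 with scaling by library totals) and from P14 to P28 (-0.42, adjusted p = 0.289) did not pass. It was the uptake gene that moved against Slc6a11 and Slc6a9 between P1 and P7. Its level per length at P1 was 11.4 ± 3.51 RPKM. The genes most like it were 2900079G21Rik (r = 0.941), Ppp2r2c (0.939), Rbfox3 (0.928), Tfrc (0.926) and Ryr2 (0.919). Rbfox3 is a neuronal gene, and the summed count of 8 general neuron markers was 4037 ± 2153, 11534 ± 1009, 31880 ± 9546 and 16699 ± 2329 at P1, P7, P14 and P28, with none at 0 in any library and with the most abundant marker, Snap25, reaching 30596. Snap25 went from 2303 at P7 to 21594 at P14 and carried most of the rise of the sum in that step. Of the 8 markers, 4 had a log2 fold change above 0 in that step and 4 below 0. The test was passed by 3 as higher and by 1 as lower, beside 10.8% and 10.0% of all genes. The part of neuronal RNA in the Slc6a6 values was not tested.

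The 3 genes of GABA breakdown and of the putrescine route had their lowest mean at P7 and their highest at P28. All 3 rose from P7 to P14, and all 3 were higher at P28 than at P1. Abat, which encodes GABA transaminase and lies on the plus strand at chr16:8513429-8621568, had normalized counts of 2458, 2664 and 2570 at P1, 2006, 1361 and 2240 at P7, 3243, 2418 and 2840 at P14, and 5742, 5664 and 4254 at P28. The P28 libraries lay above all others and the P7 libraries below all others, while P1 and P14 overlapped. Abat was the member that rose from P14 to P28 (1.84-fold, log2 fold change 0.88, SE 0.194, adjusted p = 0.00923), and it was 2.02-fold higher at P28 than at P1 (adjusted p = 0.00112; 0.58 and 0.0292 with scaling by library totals). The fall from P1 to P7 did not pass (-0.49, adjusted p = 0.165). The rise from P7 to P14 (0.62, adjusted p = 0.0342) was lost without P7 replicate 1 (0.0574), P7 replicate 2 (0.41, 0.157), P14 replicate 1 (0.52, 0.130) or P14 replicate 3 (0.0839), and with scaling by library totals (0.36, 0.207). At 0.62 it also did not pass the alternative threshold of an unadjusted p and a log2 fold change over 0.75.

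Aldh5a1, the succinic semialdehyde dehydrogenase that completes the conversion of GABA to succinate, lies on the minus strand at chr13:24907579-24937661. Its normalized count was 1240, 826 and 931 at P1, 547, 351 and 501 at P7, 1227, 1351 and 1138 at P14, and 2183, 1458 and 2403 at P28. The P7 libraries lay below all others, P1 and P14 overlapped, and the P28 libraries lay above all others. It fell 2.15-fold from P1 to P7 (log2 fold change -1.10, SE 0.235, adjusted p = 0.00944), a call lost without P1 replicate 1 (-0.94, 0.0596) or P7 replicate 2 (-0.91, 0.0536). It then rose 2.69-fold to P14 (1.43, adjusted p = 5.71e-04). The step to P28 was 0.67 (adjusted p = 0.0710) and passed without P28 replicate 2 (0.89, 0.0208) and in DESeq2 (0.70, 0.0344). The net rise was 2.00-fold (adjusted p = 0.00465; 0.57 and 0.0610 with scaling by library totals). Exons of Aldh5a1 share bases with 4932702P03Rik and 9330162012Rik on the opposite strand, whose means did not exceed 3.45 and 22.6 normalized counts.

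Aldh5a1 and Slc6a9 were the pair of members whose log2 values moved together most closely (r = 0.95 over 12 libraries). The genes most like Aldh5a1 were Phlpp1 (r = 0.984), Paqr8 (0.977), Abhd12 (0.977), Camk2g (0.975) and Ncam2 (0.972), and those most like Abat were Ndp (0.971), F730043M19Rik (0.966), Farp1 (0.959), G6pc3 (0.955) and Slc7a2 (0.954). Because the pair moved together, the 250 bases before their RefSeq starts (GRCm38.p6) are shown 5′ to 3′ on the strand of the gene. Capitals mark matches to the E-box CANNTG, the letters read by basic helix-loop-helix factors. For Slc6a9 the first of 3 starts is shown, since a count per gene does not separate them.
Slc6a9, chr4:117835008-117835257, plus strand: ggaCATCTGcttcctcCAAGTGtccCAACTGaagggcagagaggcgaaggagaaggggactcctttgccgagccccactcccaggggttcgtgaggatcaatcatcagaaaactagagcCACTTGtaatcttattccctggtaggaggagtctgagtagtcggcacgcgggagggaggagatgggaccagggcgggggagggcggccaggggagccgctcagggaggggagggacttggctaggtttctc
Aldh5a1, chr13:24937662-24937911, minus strand: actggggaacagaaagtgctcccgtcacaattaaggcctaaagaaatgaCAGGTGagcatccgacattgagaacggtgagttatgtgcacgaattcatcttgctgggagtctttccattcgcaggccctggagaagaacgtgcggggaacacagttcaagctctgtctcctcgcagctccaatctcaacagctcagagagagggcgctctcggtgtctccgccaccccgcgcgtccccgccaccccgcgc
The Slc6a9 window held 4 E-boxes, and 3.8% of 32851 windows of the same length before RefSeq starts held 4 or more, and the windows before its other starts held 0. The Aldh5a1 window held 1, and at least 1 was found in 66.2% of all windows. GGGCGG, the GC box, searched on both strands like the other motifs, matched 2 times in the Slc6a9 window and 0 times in that of Aldh5a1 (32.7% of all windows had a match), and TTGGC, letters bound by the nuclear factor I family, matched 1 time and 0 times (41.5% of all windows). Matches of different motifs could overlap, and a match here is a description of letters only. Of the 8 genes, 5 had an entry in the promoter table, and Slc6a6, Abat and Maob had none.

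Maob encodes monoamine oxidase B and lies on the minus strand at chrX:16709282-16817366. It was the member with the lowest level per length at P7, with 1.38 ± 0.246 RPKM. Its normalized count was 21.5, 92.2 and 50.7 at P1, 38.2, 34.0 and 27.1 at P7, 139, 208 and 114 at P14, and 175, 249 and 295 at P28. These rest on as few as 26 reads in P7 replicate 2 and at most 218. P1 and P7 overlapped with each other, as did P14 and P28, and both later ages lay above both earlier ones. Maob rose 4.43-fold from P7 to P14 (log2 fold change 2.15, SE 0.544, adjusted p = 0.0112; 1.91 and 0.0554 without P14 replicate 2) and was 4.93-fold higher at P28 than at P1 (2.30, adjusted p = 0.00483). The steps from P1 to P7 (-0.50, adjusted p = 0.748) and from P14 to P28 (0.65, adjusted p = 0.456) did not pass. Snx14 (r = 0.980), Cldnd1 (0.975), Ctso (0.975), Amigo2 (0.971) and Lars2 (0.968) were the genes most like it.

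The astrocyte marker sum also rose from P7 to P14 and was higher at P28 than at P1. Abat equalled 3.30% ± 0.409 of the summed astrocyte markers at P1, then 4.02% ± 0.501, 1.74% ± 0.372 and 1.41% ± 0.323 at the 3 later ages (SD, n = 3). Aldh5a1 equalled 1.28% ± 0.243, 1.01% ± 0.120, 0.751% ± 0.0242 and 0.537% ± 0.123 of them at P1, P7, P14 and P28. These genes are not in the astrocyte list, so the values are ratios to the sum and not parts of it. Both ratios were lower at P28 than at P1 in every library. For Maob the mean ratio lay between 0.0634% (P28) and 0.0917% (P14), and for Slc6a9 it was 1.84% ± 0.182, 0.950% ± 0.184, 1.33% ± 0.143 and 0.746% ± 0.162 at P1, P7, P14 and P28. For Slc6a6 it was 1.13% ± 0.440, 4.79% ± 2.93, 1.40% ± 0.312 and 0.475% ± 0.184, so that its ratio at P28 was below that at P1 in every library although its normalized count was higher. The astrocyte markers themselves did not all move together, since 6 of the 10 fell and 2 rose from P1 to P7, 7 rose and 1 fell from P7 to P14, and 9 rose from P14 to P28. Over the whole span 8 rose and 2 fell, which were Aldh1l1 and Fabp7 (15869 to 5215 normalized counts). These counts are of markers that passed. Of all genes tested, 3.47%, 10.8%, 5.68% and 14.6% passed as higher in the 4 comparisons, and 4.24%, 10.0%, 8.76% and 20.0% as lower. The sum leans on its most abundant members, with Slc1a3 going from 16707 to 121507 and Slc1a2 from 12453 to 87579, so the ratios describe this sum and not each marker. Aldh1l1, whose promoter drives the GFP, was at 5008 normalized counts, 1470, 1879 and 2921 at P1, P7, P14 and P28, and it fell from P1 to P7 (log2 fold change -1.80, adjusted p = 4.66e-04) as Slc6a11, Slc6a9 and Aldh5a1 did.

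**Figure D2:**
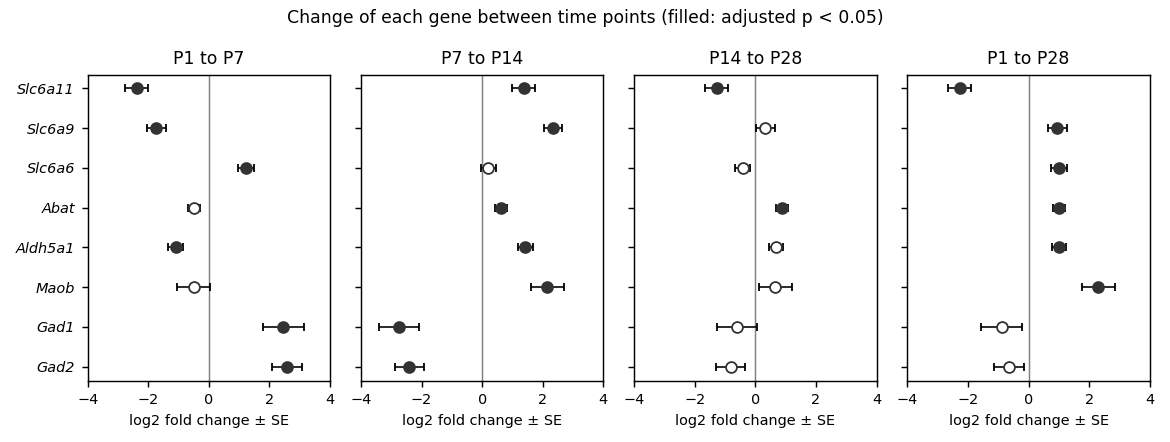
Log2 fold change (later minus earlier age, on log2(normalized count + 1)) of each of the 8 genes in the 4 comparisons, with whiskers of 1 SE. Filled points passed at an adjusted p under 0.05; 6, 7, 2 and 6 points are filled in the panels from P1 to P7, P7 to P14, P14 to P28 and P1 to P28.

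Gad1 and Gad2, the 2 glutamate decarboxylases, peaked at P7. Gad1 lies on the plus strand at chr2:70553072-70602014 and had normalized counts of 142, 110 and 444 at P1, 1476, 669 and 1194 at P7, 166, 98.4 and 233 at P14, and 77.5, 328 and 41.9 at P28. Gad2, on the plus strand at chr2:22622205-22693874, had 75.7, 103 and 342 at P1, 1042, 535 and 1044 at P7, 149, 168 and 154 at P14, and 68.7, 81.4 and 124 at P28. For both genes every P7 library lay above every other library. P1 replicate 3 was the highest P1 library for both, and P28 replicate 2 was the highest P28 library for Gad1 but not for Gad2. Gad1 rose 5.51-fold from P1 to P7 (log2 fold change 2.46, SE 0.670, adjusted p = 0.0372) and Gad2 rose 5.98-fold (2.58, SE 0.492, adjusted p = 0.00468). From P7 to P14, Gad1 fell 6.72-fold (-2.75, adjusted p = 0.00890) and Gad2 fell 5.29-fold (-2.40, adjusted p = 0.00286). Later steps did not pass, with Gad1 at -0.61 (adjusted p = 0.584) and Gad2 at -0.82 (adjusted p = 0.287) from P14 to P28.

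The Gad1 rise from P1 to P7 was close to the threshold. It was lost without P1 replicate 1 (2.25, adjusted p = 0.143), P1 replicate 2 (2.07, 0.165), P7 replicate 1 (2.22, 0.141), P7 replicate 2 (2.79, 0.0551), P7 replicate 3 (2.37, 0.127) or P14 replicate 1 (0.0553), and with edgeR (2.27, 0.0589). Without P1 replicate 3 it was larger (3.07, 0.0165). The Gad2 rise kept its call without any of the 12 libraries, at 2.15 to 3.23, the largest without P1 replicate 3, as did the falls of both genes to P14. From P1 to P28, Gad1 (-0.89, adjusted p = 0.322) passed only without P28 replicate 2 (-1.73, 0.0325), and Gad2 (-0.64, adjusted p = 0.332) was at 0.0061 without P1 replicate 3. The log2 ratio of Gad1 to Gad2 within a library was 0.46 ± 0.408, 0.34 ± 0.155, -0.0061 ± 0.695 and 0.21 ± 1.77 at P1, P7, P14 and P28 (SD, n = 3). An exact permutation test of any difference among the 4 ages, over all 369600 assignments of the libraries, did not detect one (p = 0.934, with a smallest possible p of 6.49e-05).

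At P7 the GABA-synthesizing enzymes were at 16.9 ± 5.99 (Gad1) and 17.2 ± 5.47 (Gad2) RPKM, ranking 2563rd and 2506th of 14857 genes. At P1, P14 and P28 their mean levels per length lay between 1.27 and 3.44. The 12 markers of GABAergic interneurons and their precursors also peaked at P7, with summed counts of 2505, 943 and 5134 at P1, 13356, 6706 and 13232 at P7, 719, 654 and 768 at P14, and 545, 381 and 441 at P28. Within P1, replicate 3 was the highest library for Gad1, Gad2 and this sum, and within P7, replicate 2 was the lowest for all 3. The most abundant marker was Tfap2b at P1 and P7 on average (950 and 3585 normalized counts). Pax2, a marker of immature cerebellar interneurons, was at 266 at P1, 1707 at P7 and 23.6 at P14. From P1 to P7 none of the 12 markers passed the test, although 11 were above 0 with a median log2 fold change of 2.49 and the libraries of 10 did not overlap, beside 7.70% of all genes that passed and 38.3% that did not overlap. From P7 to P14, 9 fell, Pvalb rose and the median was -5.81, while 20.9% of all genes passed. Ptf1a was at 0 in every P14 library and in P28 replicates 1 and 2, and Prdm13 was at 0 in every P14 library and in P28 replicates 2 and 3.

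Gad1 and Gad2 are not among the 12 markers, and on average their counts were larger relative to the marker sum at P14 and P28 than at P1 and P7. Gad1 equalled 8.66% ± 3.00 of the summed interneuron markers at P1 and 10.0% ± 1.01 at P7, then 22.9% ± 7.68 at P14 and 36.6% ± 42.9 at P28, where the 3 libraries ran from 9.51% to 86.1%. Gad2 equalled 6.86% ± 3.95, 7.89% ± 0.0894, 22.2% ± 3.08 and 20.7% ± 7.83 at P1, P7, P14 and P28. For Gad2 the P14 libraries, at 20.1% to 25.7%, lay above all P7 libraries, at 7.80% to 7.98%. The make-up of the marker sum differed between ages. Its most abundant marker was Tfap2b at P7 (3585 normalized counts on average) and Kit at P14 (233, with Tfap2b at 85.7). The ratios therefore describe this sum and not the level of Gad1 or Gad2 per interneuron. Purkinje cells also make GABA, and the summed count of 8 Purkinje markers was 2030 ± 120, 2356 ± 365, 2057 ± 277 and 3266 ± 1422 at P1, P7, P14 and P28. Itpr1 made up 1699 of the sum at P7 and 2777 at P28, and the other markers took different courses, with Foxp2 falling from a mean of 881 at P1 to 71.4 at P28, Pcp2 at 8.49 at P7 and 126 at P14, Slc1a6 highest on average at P7 and Skor2 at 0 in every P14 and P28 library. The part of GABAergic neurons in the Gad1 and Gad2 values was not tested.

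**Figure D3:**
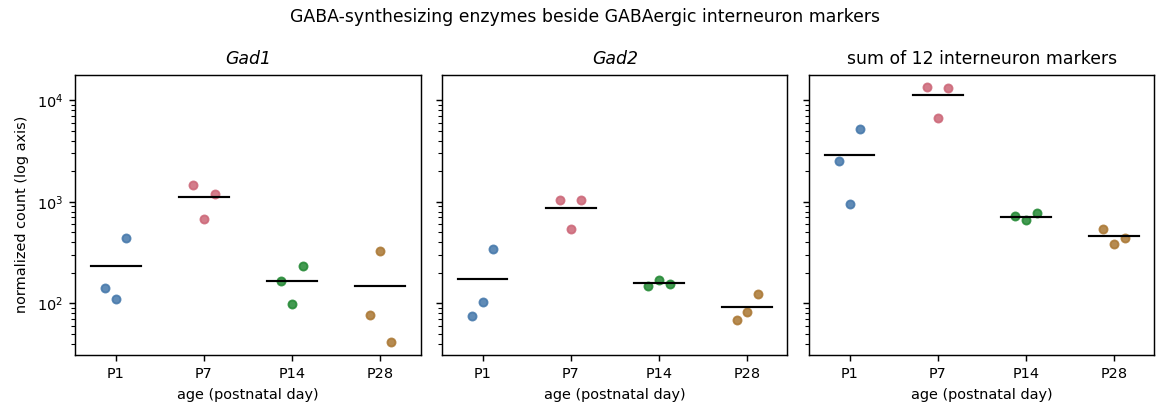
Normalized counts of Gad1, Gad2 and the sum of 12 markers of GABAergic interneurons and their precursors, on a shared log axis. Points are libraries and lines are means; all 3 panels have their highest values at P7, where the marker sum runs from 6706 to 13356.

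Gad1 and Gad2 were correlated at r = 0.85 over the 12 libraries. The genes most like Gad1 were Cdk5r1 (r = 0.949), Xrn1 (0.937), Tbpl1 (0.932), Nemf (0.930) and Cul1 (0.930), and those most like Gad2 were Tbc1d30 (0.949), the neuronal intermediate filament gene Ina (0.949), Cep170 (0.946), Hnrnpa2b1 (0.942) and Myt1l (0.938). The antisense gene Gad1os overlaps Gad1 without shared exon bases. It had 20.7 ± 20.5, 21.9 ± 19.9 and 48.5 ± 81.2 normalized counts at P1, P7 and P14 (SD, n = 3) and 0 reads at P28. Since these genes moved together, the 250 bases before their RefSeq starts (GRCm38.p6) are shown as above, with E-boxes in capitals.
Gad1, chr2:70561879-70562128, plus strand: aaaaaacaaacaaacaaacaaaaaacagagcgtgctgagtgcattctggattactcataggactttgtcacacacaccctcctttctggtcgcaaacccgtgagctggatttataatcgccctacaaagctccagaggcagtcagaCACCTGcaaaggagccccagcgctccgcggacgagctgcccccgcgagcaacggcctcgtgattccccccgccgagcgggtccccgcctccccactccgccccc
Gad2, chr2:22622077-22622326, plus strand: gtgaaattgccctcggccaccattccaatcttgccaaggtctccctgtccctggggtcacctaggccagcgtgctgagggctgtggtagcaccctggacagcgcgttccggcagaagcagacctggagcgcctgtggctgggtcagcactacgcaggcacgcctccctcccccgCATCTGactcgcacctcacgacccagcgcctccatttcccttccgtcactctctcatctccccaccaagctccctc
Each window held 1 E-box, the number that is also the median over all 32851 windows. TATAAA, the TATA box, matched 1 time before Gad1 and 0 times before Gad2 (12.4% of all windows had a match), GGGCGG matched 1 time and 0 times, and TTGGC 0 times and 1 time. Guanine and cytosine made up 58.0% of the Gad1 window and 64.0% of the Gad2 window, against a median of 52.4%. The window before Slc6a11 was at 71.2%, with 3 matches to GGGCGG, 1 E-box and 25 CG pairs against a median of 6.

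A further 46 genes of GABA, glycine and taurine handling were listed by role, and 44 of them were tested. From P1 to P7, 2 of the 44 rose and 8 fell, from P7 to P14, 15 rose and 4 fell, from P14 to P28, 9 rose and 4 fell, and over the whole span 15 rose and 10 fell. Of all genes tested, 3.47%, 10.8%, 5.68% and 14.6% rose and 4.24%, 10.0%, 8.76% and 20.0% fell in these 4 comparisons. The median log2 fold changes of these genes were -0.34, 0.36, 0.17 and 0.10. The genes are given by role.

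Among 12 other transporters of GABA, glycine and related amino acids, 1 rose and 1 fell from P1 to P7, 2 rose and 2 fell from P7 to P14, 2 rose from P14 to P28, and 3 rose and 3 fell over the whole span, against 7.70%, 20.9%, 14.4% and 34.6% of all genes that passed in either direction. Slc38a1, a sodium-coupled transporter of glutamine, went from 2463 normalized counts at P1 to 16893 at P28 (log2 fold change 2.82, adjusted p = 2.19e-07) and rose at P14 to P28 (1.52, adjusted p = 5.69e-04). Its rise from P1 to P7 (0.73, adjusted p = 0.0432) missed the threshold under 14 of 24 alternatives, among them without P1 replicate 2 (0.48, 0.174). Slc38a3, which carries glutamine out of astrocytes, fell and then rose, with -0.84 from P1 to P7 (adjusted p = 0.00712), 1.26 to P14 (1.23e-04) and 0.84 to P28 (0.00635). Slc38a2, another carrier of small neutral amino acids, had mean normalized counts of 1580, 2539, 1907 and 1482 from the youngest to the oldest age and passed in no comparison (0.68 from P1 to P7, adjusted p = 0.0567). Slc6a5, the glycine transporter of glycinergic neurons, had 413, 105 and 376 reads at P7 and 0, 2 and 0 at P14 (adjusted p = 6.01e-04). Slc32a1, the vesicular transporter of GABA and glycine, fell from 334 to 29.1 normalized counts in the same step (-3.53, adjusted p = 0.00436). Slc6a5 and Slc32a1 are also in the list of interneuron markers. Best1, an anion channel that can pass GABA, was lower at P28 than at P1 (-2.59, adjusted p = 0.0183). This Best1 call was lost without P1 replicate 1 (0.0758) or P1 replicate 3 (0.0586), and with only the 2 compared ages fitted (0.0709). Without P28 replicate 2 the change was -3.32.

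Of 16 other enzymes of GABA supply and removal, 11 rose and 1 fell from P7 to P14, the step in which Abat, Aldh5a1 and Maob rose. From P1 to P7, 1 rose and 4 fell, from P14 to P28, 5 rose and 1 fell, and over the whole span 8 rose and 2 fell, beside the same shares of all genes (7.70%, 20.9%, 14.4% and 34.6%). Aldh1a1, an aldehyde dehydrogenase that can act in GABA synthesis from putrescine, rose in each step, from 162 normalized counts at P1 to 330 at P7, 2473 at P14 and 7387 at P28 (log2 fold change over the whole span 5.55, adjusted p = 7.35e-10). Its step to P7 (1.06, adjusted p = 0.0103) was lost without P1 replicate 1 (0.90, 0.0569). Glul, the glutamine synthetase of astrocytes, fell from 6921 to 2468 normalized counts and then rose to 10926 at P14 (-1.48 and 2.16, adjusted p = 3.16e-04 and 3.11e-06). Glud1, glutamate dehydrogenase, fell and then rose in both later steps (-1.29, 0.84 and 0.92 in the 3 steps, adjusted p = 4.70e-04, 0.00346 and 0.00449). Sat1, which acetylates polyamines, rose from P7 to P14 (1.83, adjusted p = 3.84e-04), and Suclg2, a subunit of succinyl-CoA ligase, rose from P14 to P28 (1.31, adjusted p = 0.00120). Adhfe1, which oxidizes gamma-hydroxybutyrate, fell from 703 to 122 normalized counts between P1 and P7 (-2.55, adjusted p = 0.00112). Its rise to P14 (1.45, adjusted p = 0.0157) was lost without P7 replicate 2 (1.11, 0.0796) or P14 replicate 1 (0.0689), and its net fall (-1.44, adjusted p = 0.0110) without P1 replicate 2 (0.0561).

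**Figure D4:**
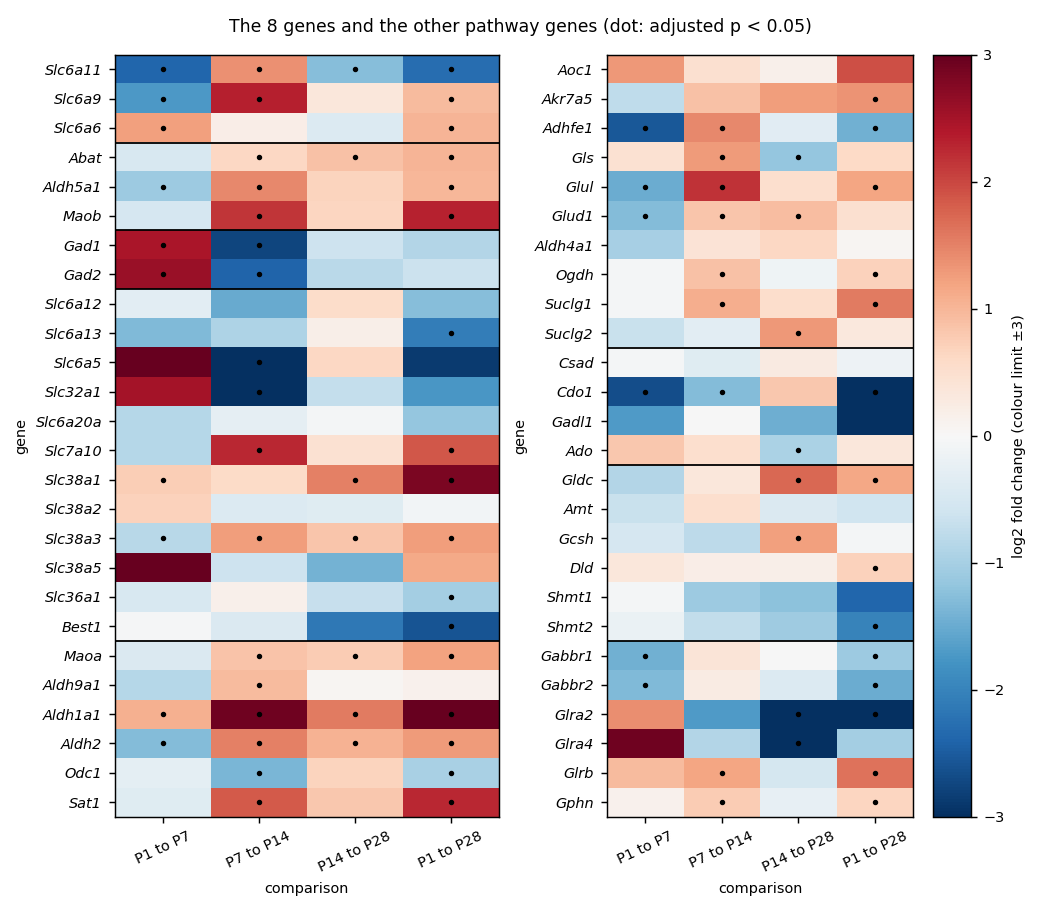
Log2 fold change (later minus earlier age) of the 8 genes, at the top of the left panel, and of 44 other tested genes of GABA, glycine and taurine handling in the 4 comparisons; colour stops at 3 in either direction and lines separate the lists by role. Dots mark genes at an adjusted p under 0.05; the column from P7 to P14 holds 15 rises and 4 falls among the 44.

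The taurine transporter Slc6a6 rose between P1 and P7, when Cdo1, the cysteine dioxygenase that starts taurine synthesis, fell from 2011 to 316 normalized counts (log2 fold change -2.67, adjusted p = 1.71e-04). Cdo1 was at 126 at P14 (-1.30, adjusted p = 0.00950; 0.0559 without P7 replicate 1) and at 226 at P28, a net change of -3.16 (adjusted p = 4.79e-06). Of the other 3 genes of taurine synthesis, Csad was near 165 normalized counts at P7 and passed in no comparison. Ado passed as lower from P14 to P28 (-0.95, adjusted p = 0.0444), a call that 15 of 24 alternatives did not make, including every setting that left out a library except P28 replicate 1. Beside the glycine transporter Slc6a9, none of 6 genes of glycine cleavage and serine to glycine conversion passed from P1 to P7 or from P7 to P14, where 7.70% and 20.9% of all genes passed. From P14 to P28, Gldc, the glycine decarboxylase, rose from 411 to 1339 normalized counts (1.72, adjusted p = 0.00224), and Gcsh rose from 106 to 242 (1.23, adjusted p = 0.0324), a call lost under 8 of 24 alternatives, among them without P14 replicate 1 (1.01, 0.109) and with scaling by library totals (1.00, 0.0718). Over the whole span Gldc was higher (1.17, adjusted p = 0.00656), Dld was higher (0.69, adjusted p = 0.0243; 0.43 and 0.0890 without P28 replicate 3, 0.0934 without P1 replicate 1; 0.26 and 0.350 with scaling by library totals) and Shmt2 was lower (-2.01, adjusted p = 0.00287; -1.42 without P28 replicate 3).

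On the receptor side, 6 of 8 genes of GABA-B and glycine receptors were tested. The GABA-B receptor subunits Gabbr1 and Gabbr2 fell from P1 to P7 as Slc6a11 did, with log2 fold changes of -1.45 and -1.32 (adjusted p = 2.22e-04 and 0.00791), and did not pass in the steps after it. At P28 Gabbr1 was at 3219 normalized counts against 6847 at P1, and Gabbr2 at 1969 against 5596. Glrb, the beta subunit of the glycine receptor, rose from P7 to P14 (1.19, adjusted p = 0.0189), as did gephyrin, Gphn, which anchors these receptors (0.76, adjusted p = 0.0163). Both of these calls were lost without P7 replicate 1 (Glrb 0.0641, Gphn 0.0551) or P14 replicate 3 (0.0878 and 0.0764), and with scaling by library totals (Glrb 0.93, 0.0610; Gphn 0.50, 0.104). That of Glrb was also lost without P7 replicate 2 (0.0712) and that of Gphn without P7 replicate 3 (0.0585). The net rise of Glrb was 1.63 (adjusted p = 0.00168) and that of Gphn 0.65 (adjusted p = 0.0248), the latter lost under 6 of 24 alternatives, among them without P28 replicate 2 (0.0789) and with scaling by library totals (0.21, 0.443). Glra2 fell from 44.3 normalized counts at P14 to 2.63 at P28 (-3.66, adjusted p = 0.00431). Glra4 was at 9.90 at P14 and had 0 reads in every P28 library (adjusted p = 0.0467). This call was kept under 7 alternatives and lost under 16, and Glra4 was not tested where every library had to reach 10. A count of 0 allows up to 3 reads, or between 3.538 and 4.384 normalized counts in these libraries, and this limit covers counting error only.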

How the data were processed

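The authors aligned paired-end reads to mm10 using STAR (2.5.0a in the submitters' processing notes), built counts per gene from UCSC transcripts and normalized them with DESeq2 (1.30.1 in those notes). The deposited values are a signal of read counts per gene divided by 1 size factor per library, called normalized counts here. For 100.0% of values a whole number of reads was recovered (tolerance 0.01), which gave the reads on genes of each library (6399499 to 14733985). Of 24421 entries, 27 had symbols turned into dates, 2 symbols were repeated and 23350 matched GENCODE M21, which gave exon lengths and positions. No column of per-sample values was left unmapped. Every column name carried P28 whatever the age, so the ages were taken from the sample titles and descriptions.

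Group means were compared with limma (3.58.1, R 4.3.3) on log2(value + 1) in 1 fit of all 12 libraries with a trended variance, over genes that reached 10 in 3 or more libraries, with Benjamini-Hochberg adjustment over all 15464, and the scripts were tested on simulated data. A design for raw counts was not used because the values are not raw counts. Alternatives were edgeR (4.0.16) and DESeq2 (1.42.0) on the recovered reads, other scalings, pseudocounts, filters and thresholds, the replicate block, and leaving out each library. Likeness is Pearson's r of log2(value + 1) among tested genes. Of each list of other genes, the 3 most abundant and the 2 with the largest change among those passing in each comparison were named; the astrocyte, interneuron and other marker genes named singly were chosen after their values were seen. The 8 genes and all lists were chosen with earlier results of these data known. One item is not reported here. Library pairs within an age differed by more than sampling noise. Of the marker lists not described in full in the report, mean summed counts (± SD, n = 3) at P1, P7, P14 and P28 were 903 ± 578, 5686 ± 518, 11833 ± 4367 and 5970 ± 520 for 8 granule neuron markers, 2973 ± 2030, 6165 ± 5115, 7189 ± 436 and 4689 ± 979 for 8 endothelial and pericyte markers, 1246 ± 306, 1676 ± 292, 3114 ± 585 and 1969 ± 256 for 8 microglia markers, 592 ± 231, 79142 ± 42892, 58016 ± 54504 and 101762 ± 82543 for 6 choroid plexus markers, and 38672 ± 26723, 25958 ± 7010, 22431 ± 3617 and 11740 ± 826 for 6 meningeal and fibroblast markers.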

Additional observations from a re-analysis of the deposited data

How the results depend on the processing

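Of 768 values of the 8 genes under 24 alternatives, 729 kept their direction and their side of the threshold, 33 no longer passed, 3 came to pass and 3 reversed. The reversed values, none of which passed in the fit reported, were Slc6a6 from P7 to P14 (-0.048 with scaling by library totals), Gad1 from P14 to P28 (0.03 without P28 replicate 3, range -1.44 to 0.03 over libraries left out) and Gad2 from P1 to P28 (0.0061 without P1 replicate 3, range -1.07 to 0.0061). The count of the 8 genes that passed from P14 to P28 was 2 and became 1 with no filter on low values or with only the compared ages fitted, 3 with DESeq2, and 1 to 3 with a library left out. From P1 to P28 it was 6 and became 3 with scaling by library totals. Of all 15464 genes tested, 6500 passed in that comparison with this scaling, against 5350 in the fit reported. Of the other pathway genes, the 10 that passed from P1 to P7 became 18 with DESeq2, 20 with only the compared ages fitted, 20 with an unadjusted p and a log2 fold change over 0.75, and 7 to 16 with a library left out, and the 13 that passed from P14 to P28 became 8 to 15. Scaling by library totals moved the median of all genes from -0.086, -0.12 and -0.23 to -0.34, -0.35 and -0.66 in the last 3 comparisons, and rises made up 33.0%, 19.1% and 21.0% of the calls in place of 51.9%, 39.3% and 42.3%. Over all genes, the 1191 calls from P1 to P7 became 1797 with DESeq2, 2820 with only the compared ages fitted, 2198 with the unadjusted threshold and 651 to 1536 with a library left out, and the 2232 from P14 to P28 became 766, 3725 and 1242 to 2807 under the last 3 of these. The cause of these shifts was not tested.

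Replicate numbers were shared between ages, but same-numbered libraries deviated together only weakly (correlation of deviations -0.029 to 0.139 over 18 pairs, against -0.105 to 0.054 over 36 other pairs), so the numbers were not taken to pair the libraries. With the replicate number as a block, 5, 7, 2 and 6 of the 8 genes passed in the 4 comparisons, against 6, 7, 2 and 6 without it; the difference was Gad1 from P1 to P7 (2.46, adjusted p = 0.0534). With this block 11, 19, 12 and 27 other pathway genes passed, against 10, 19, 13 and 25, and the exact permutation p for the ratio of Gad1 to Gad2 was 0.875. Of the 8 genes, Maob rested on the fewest reads at any age, with 109 at P7 over the 3 libraries. Some of the other pathway genes rested on fewer, such as Glra2 with 6 at P28.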
